A study of Drosophila melanogaster with 6 samples.

Results

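The tetraspanin genes of Drosophila melanogaster were followed in male larvae of the third instar that lacked one or both roX RNAs. Members were the genes whose symbol is Tsp followed by a number and a letter, at every signal level. The gene table lists 34 such genes, and 36 probe sets carry one of their names. Of these genes, 32 had a probe set of their own, among 11953 genes with one in the whole series, and they are the members described here. Tsp66A and Tsp42Eb share all 4 of their probe sets with other genes and were not analysed here. The members fall into 16 genes of the 42E cluster on chromosome arm 2R, 13 autosomal genes outside it and 3 X-linked genes.

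Tetraspanins are small proteins that cross the membrane several times, with a large extracellular loop held by conserved cysteines. They gather receptors, adhesion proteins and proteases into patches of the cell surface and of endosomes. In flies most single genes are little studied, but some have known roles in cell junctions of the gut and renal tubules, in Notch signalling, in nerve terminals and in photoreceptors. A large share of the fly family sits in 1 tandem array, the 42E cluster.

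The mutant larvae were y+ w males with the roX1 allele SMC17A and a roX2 mutation (3 arrays). The control larvae were y+ w roX1+ males that also carried a roX2 mutation (3 arrays), so both groups lacked roX2 and the control was not free of mutations. Both roX genes make noncoding RNA that joins the complex raising transcription of the male X chromosome, and the study asked how X-linked and autosomal expression change without them. Each array held RNA pooled from 50 whole larvae in a separate preparation, hybridised to a single-colour Affymetrix Drosophila array.

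Signals were scaled so that the median of the kept autosomal genes is 100 on each array. Every log2 difference below was taken as mutant minus control, from the means of log2 signals. Genes in the upper 50% of probe sets by mean signal were tested (7801 genes) with limma, and a gene rose or fell at a Benjamini-Hochberg adjusted p under 0.05 over all of them. Correlations across genes ran from 0.972 to 0.991 among mutant arrays, from 0.984 to 0.99 among control arrays and from 0.889 to 0.926 for arrays of different groups. No probe set carries the name of roX1 or roX2 in the probe table, so the genotype was not checked at those loci. Whole larvae hold all tissues, so fewer cells of a type and less RNA per cell cannot be told apart in any value below. Signals of different probe sets are not comparable as levels of different genes, and each gene is read only against itself. Precision is limited by 3 arrays per group.

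Lower signals in the mutant prevailed among the tested tetraspanin genes. Of the 32 members, 25 passed the signal filter and 7 lay below it. Among the 25, 18 fell, 1 rose and 6 did not pass, where 32.4% of all tested genes fell and 23.1% rose. On the arrays themselves, 18 of the 25 had every mutant array below every control array (36.9% of all tested genes), 3 had every mutant array above (26.4%) and 4 overlapped. The median log2 difference of the 25 was -0.46, and that of all tested genes was -0.06. The family was put forward with results of this contrast known. Within it, Tsp39D, Tsp42Er, Tsp42Ei and Tsp42Ej were selected on their log2 differences, which are the lowest of the 25, so their values stand as a description with no test, and nothing is read from the family's count. Without these 4 genes, 14 of 21 fell, with a median of -0.39. Over all 32 members at any signal, 21 had every mutant array below every control array (32.2% of all 11953 genes) and 3 had every mutant array above (22.3%).

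The 4 singled-out genes had every mutant array below every control array, as did 36.9% of all tested genes. They were selected on their low differences, so nothing is read from this separation. Tsp39D, a dispersed gene of arm 2L, had signals of 41.4, 30.7 and 40.2 on the mutant arrays, against 82.7, 74.3 and 69.7 on the control arrays, a log2 difference of -1.02 (SE 0.133). All mutant arrays lay below all control arrays, and array 2 was the lowest of the mutant group. The mutant mean of Tsp39D (37.4) was near the median probe set (28.0), so the size is uncertain. With an offset of 50 added to the signal before the logarithm its difference was -0.52. Tsp42Er, the last gene of the cluster, had 217, 183 and 177 on the mutant arrays, against 349.6, 373 and 333 on the control arrays (log2 -0.88, SE 0.0995). The groups were again apart, with mutant array 1 nearest to the controls. Tsp42Ei had 55.4, 58.2 and 67.1 in the mutant, against 93.0, 116 and 107 in the control (log2 -0.80, SE 0.114). Tsp42Ej, also known as sunglasses, encodes a lysosomal tetraspanin that takes part in the degradation of rhodopsin in photoreceptors. Its signals were 79.6, 63.7 and 64.5 in the mutant, against 123, 121 and 117 in the control (log2 -0.80, SE 0.103), with the control arrays close together. The next members in size of difference were Tsp42Ek at -0.70 and Tsp42El at -0.69.

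**Figure D1:**
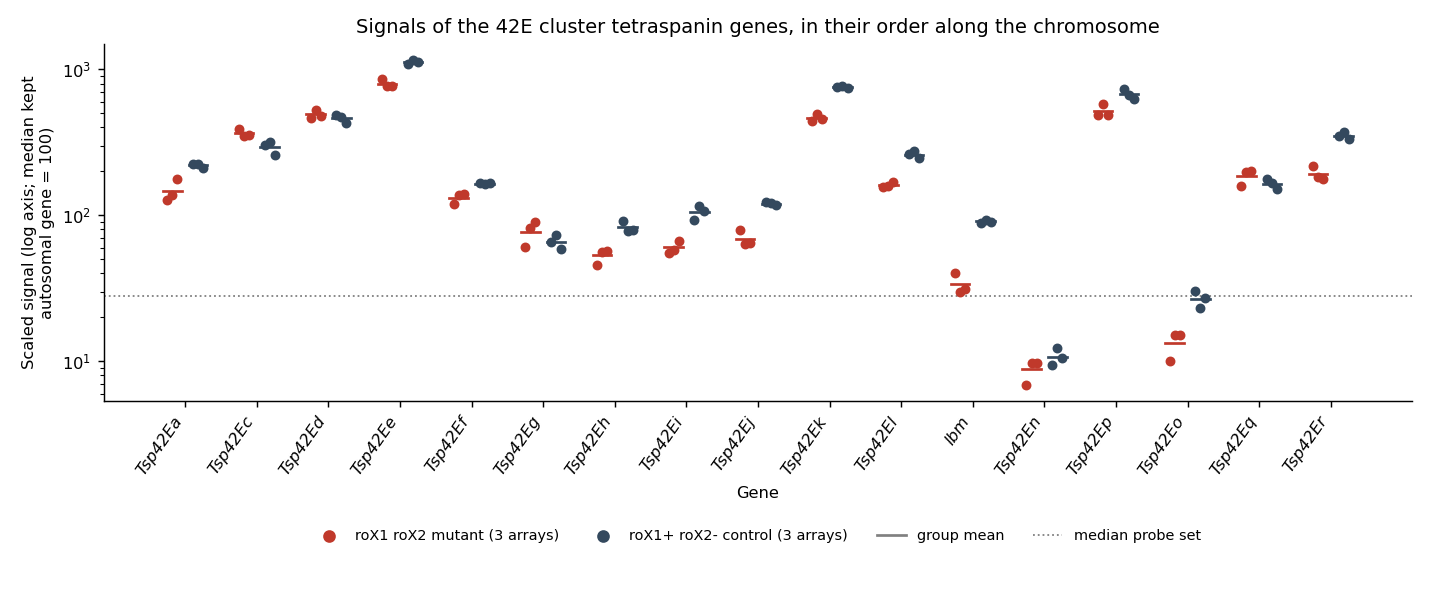
Scaled signal on a log axis for each 42E cluster gene with a probe set of its own, in the order of the gene table, with 3 mutant arrays (left of each pair) and 3 control arrays (right), bars at the group means and a dotted line at the median probe set. Tsp42Eh, Tsp42Ek, Tsp42El and lbm have every mutant array below every control array (36.9% of all tested genes). Tsp42Ei and Tsp42Ej, which lie among them, do too, but were selected on their low values. Tsp42Ec is the tested member with every mutant array above (26.4% of all tested genes).

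In the 42E cluster, 14 of 16 members were tested, of which 10 fell, 1 rose and 3 did not pass. Of all 1650 tested genes of arm 2R, 26.4% fell and 26.9% rose. The median of the cluster was -0.54 on the log2 scale, while that of arm 2R was -0.01. These cluster values include Tsp42Er, Tsp42Ei and Tsp42Ej, which were selected on their low differences. Without them 7 of 11 fell, with a median of -0.39. The cluster was not uniform: its differences ran from -0.88 to 0.32, and lowered genes lay beside genes that did not pass. The gene table places 27 genes inside the span of the cluster, 18 of them tetraspanin genes with lbm counted.

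At one end of the cluster neighbouring genes lay on both sides of 0. Tsp42Ea had 128, 137 and 176 on the mutant arrays, against 224, 223 and 212 on the control arrays, and fell by 0.59 on the log2 scale (SE 0.123, limma adjusted p = 0.00439). Mutant array 3 lay nearest to the controls, and the groups did not overlap. Tsp42Ec had 390.1, 352 and 354 in the mutant, against 305, 317 and 257 in the control. It was the 1 member that rose (log2 0.32, SE 0.0992, limma adjusted p = 0.0246), and without control array 3 it did not pass (limma adjusted p = 0.0845). Its neighbour Tsp42Ed had 464, 531 and 482 in the mutant, against 487, 472 and 428 in the control. These groups overlapped, and the difference of 0.09 did not pass. Tsp42Ee, the next gene, had 857, 768 and 773 in the mutant, against 1081, 1156 and 1126 in the control, and fell by 0.49 (SE 0.0676, limma adjusted p = 0.000727).

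In the middle of the cluster, Tsp42Ef fell by 0.32 (SE 0.0864, limma adjusted p = 0.0134), with a mean of 132 ± 10.8 in the mutant, against 165 ± 0.479 in the control (SD, n = 3 each). This call was lost without rescaling of the arrays (log2 -0.20, limma adjusted p = 0.0767). Tsp42Eg had 60.7, 81.5 and 89.9 in the mutant, against 65.7, 73.3 and 59.2 in the control. The groups overlapped and its difference of 0.21 did not pass. Mutant array 1 decided that value: without it Tsp42Eg stood at 0.38 and passed (limma adjusted p = 0.0213).

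After Tsp42Eg, the genes Tsp42Eh, Tsp42Ek, Tsp42El and lbm fell. Tsp42Ei and Tsp42Ej, which lie between Tsp42Eh and Tsp42Ek, were selected on their low values and are not counted with them. Tsp42Eh had 45.9, 56.4 and 56.8 in the mutant, against 91.8, 77.7 and 79.2 in the control, and fell by 0.65 (SE 0.115, limma adjusted p = 0.00223). Tsp42Ek had 443, 495 and 456 in the mutant, against 755, 765 and 747 in the control, and fell by 0.70 (SE 0.0693, limma adjusted p = 0.000197). Tsp42El had 156, 158 and 170.1 in the mutant, against 261, 275 and 247 in the control, and fell by 0.69 (SE 0.0811, limma adjusted p = 0.000366). In each of these genes the gap between the groups was wider than the spread within either.

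lbm (late bloomer) is a tetraspanin gene of the cluster whose symbol the rule does not take. Its protein sits on motor axons and their growth cones, and embryos without it form neuromuscular synapses late. lbm had 40.0, 29.8 and 31.3 in the mutant, against 89.1, 92.6 and 90.2 in the control. It fell by 1.44 on the log2 scale (SE 0.12, limma adjusted p = 0.000119), to a level near the median probe set (28.0) in the mutant, so the size is uncertain. With an offset of 50 added to the signal before the logarithm the difference was -0.75.

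Markers of the nervous system are given beside lbm. Of 8 listed genes, 7 had a probe set of their own, 3 passed the signal filter and all 3 fell: elav (log2 -0.53), a neuronal RNA-binding protein gene, Appl (-1.02), the amyloid precursor homologue, and fne (-1.20), a relative of elav. Their summed signal was 72.4 to 94.0 on the mutant arrays, against 143 to 161 on the control arrays. The mutant means of 30.3, 22.7 and 27.3 lay near the median probe set (28.0), so the sizes are uncertain. The signal filter took the mean over both groups, so Appl and fne, below that median in the mutant, passed it through their control arrays. Such a filter favours genes that fell, so nothing is read from the count of 3. With an offset of 50 the differences were -0.22, -0.40 and -0.54, with a median of -0.40. The elav call was lost without rescaling (limma adjusted p = 0.0592) and on leaving out control array 3 (0.0542) or mutant array 2 (0.0567). All 3 are X-linked, and of all tested X-linked genes 48.1% fell, with a median of -0.29. With no signal filter the 7 genes had a median of -0.12 and the other 4 did not pass. Their part in the lbm result was not tested.

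The far end of the cluster was mixed again. Tsp42Ep had 485, 577 and 488 in the mutant, against 736, 670.1 and 629 in the control, and fell by 0.39 (SE 0.0952, limma adjusted p = 0.00877). Tsp42Eq, next to Tsp42Er, had 159, 197 and 201 in the mutant, against 177, 166 and 151 in the control. Its groups overlapped and the difference of 0.17 did not pass, but it passed without mutant array 1 (log2 0.28, limma adjusted p = 0.0369) and without rescaling (0.30, limma adjusted p = 0.0433). It lay on the other side of 0 from Tsp42Er beside it, and the difference between these genes was not tested.

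Both dim cluster members lay below the signal filter. Tsp42En had 6.86, 9.75 and 9.76 in the mutant, against 9.40, 12.4 and 10.5 in the control, and the groups overlapped. Tsp42Eo had 10.0, 15.0 and 15.2 in the mutant, against 30.0, 23.2 and 27.2 in the control, and the groups were apart. When all 11953 genes were fitted with no signal filter (25.5% fell and 17.6% rose), Tsp42Eo stood at -1.01 (limma adjusted p = 0.00299) and Tsp42En at -0.30 (limma adjusted p = 0.268). Sizes at such low signals are uncertain.

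The few tested genes of other families within the cluster and beside it did not fall. Of all tested genes of arm 2R, 26.4% fell and 26.9% rose, so no contrast with the tetraspanin genes is read from these few. CG30159, which overlaps Tsp42Ea in the gene table, rose by 0.63 (SE 0.0936, limma adjusted p = 0.000997), with means of 211 in the mutant, against 137 in the control. Pgant3, which encodes an enzyme that starts O-linked glycosylation and lies between Tsp42Eo and Tsp42Eq, rose by 0.48 (SE 0.106, limma adjusted p = 0.00572), with means of 111 in the mutant, against 79.1 in the control. These were the 2 tested of 9 such genes inside the span. Of the neighbours outside it, CG30156 rose by 0.35 (limma adjusted p = 0.0118), while CG17002 (-0.11) and CG12831 (0.04) did not pass.

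Some of these probe sets may not read 1 gene alone. In the gene table Tsp42Ea overlaps Tsp42Eb and CG30159, Tsp42Ej overlaps Tsp42Ek, Tsp42Eo overlaps Tsp42Ep and Tsp42Ei overlaps CG33914, and whether probes lie in the shared stretches was not checked here. The probe sets of Tsp42Ea, Tsp42Eh, Tsp29Fb, Tsp66E and Tsp74F carry Affymetrix's mark for probes that match several transcripts, so relatives could add to their signal.

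**Figure D2:**
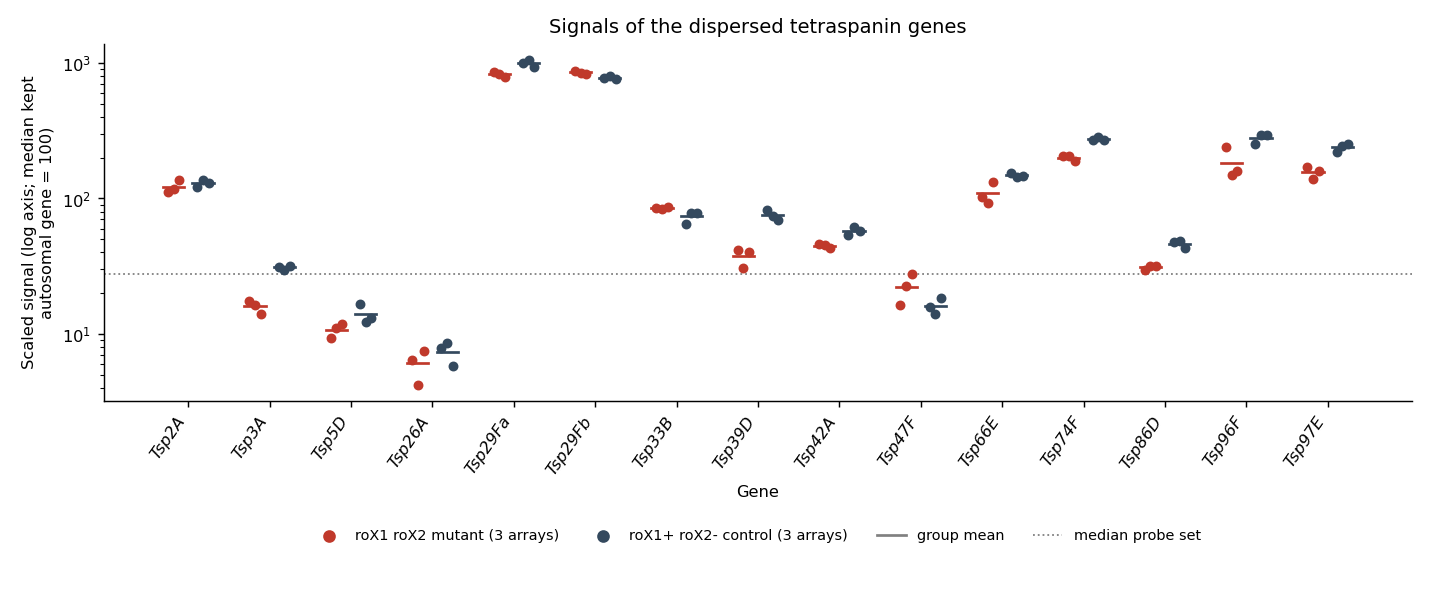
Scaled signal on a log axis for the tetraspanin genes outside the 42E cluster, with 3 mutant arrays (left of each pair) and 3 control arrays (right), bars at the group means and a dotted line at the median probe set. Tsp68C, with a value below 0, is left out. Of the 10 tested autosomal genes, 8 have every mutant array below every control array, and Tsp29Fb and Tsp33B have every mutant array above.

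Outside the cluster, 10 of the 13 autosomal members were tested, of which 8 fell and 2 did not pass (32.4% of all tested genes fell), and without the selected Tsp39D 7 of 9 fell. Their median log2 difference was -0.46, and without Tsp39D it was -0.45. None of the 10 had overlapping groups: 8 had every mutant array below every control array (36.9% of all tested genes) and 2 had every mutant array above (26.4%). These genes lie on 4 chromosome arms, each with at least 1 gene that fell. On arm 2R this was Tsp42A alone, and on arm 2L it was Tsp29Fa beside the selected Tsp39D. The calls of Tsp42A and Tsp29Fa were lost without rescaling.

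Some members act with the protease Kuzbanian. Tsp3A, Tsp26A and Tsp86D belong to the subgroup of tetraspanins that escorts Kuzbanian, which cleaves Notch, to the cell surface. Tsp86D had 29.8, 31.99 and 31.8 on the mutant arrays, against 47.9, 48.2 and 43.0 on the control arrays, and fell by 0.57 (SE 0.0945, limma adjusted p = 0.00157). Its mutant signals were near the median probe set (28.0), so the size is uncertain, and with an offset of 50 the difference was -0.25. The X-linked Tsp3A lay below the signal filter but had separate groups, at 17.5, 16.5 and 14.1 in the mutant, against 31.2, 29.9 and 31.9 in the control. With no signal filter it stood at -0.96 (SE 0.126, limma adjusted p = 0.000703). Tsp26A was at 4.21 to 7.53 in the mutant, against 5.79 to 8.60 in the control, where the groups overlapped.

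Other Notch pathway genes were read from a list of 16, of which 9 had a probe set of their own and 7 were tested. Of the 7, 4 fell and 3 did not pass, with a median of -0.42, where 32.4% of all tested genes fell. kuz, the gene of the protease, had 52.0, 45.8 and 45.4 in the mutant, against 67.3, 62.6 and 81.1 in the control, and fell by 0.55 (SE 0.117, limma adjusted p = 0.00499). pen-2, a subunit of the gamma-secretase that makes the next cut in Notch, fell by 0.78 (SE 0.0926, limma adjusted p = 0.000384). fng, a glycosyltransferase that modifies Notch, fell by 0.42, and mam, a coactivator of Notch targets, by 0.76. The mutant mean of mam (27.2) was near the median probe set (28.0), and with an offset of 50 its difference was -0.31. The signal filter took the mean over both groups, so mam passed it through its control arrays. Nothing is read from its place in the count of falls. The fng call was lost without rescaling (log2 -0.30, limma adjusted p = 0.0768). With no signal filter the median over the 9 genes was -0.21.

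Among the remaining autosomal genes, Tsp97E, listed with the older name Tspan31, had 171, 139 and 159 in the mutant, against 221, 244 and 252 in the control. It fell by 0.62 (SE 0.102, limma adjusted p = 0.00154). Tsp96F had 239.6, 148 and 158 in the mutant, against 252, 296 and 294 in the control, and fell by 0.66 (SE 0.177, limma adjusted p = 0.014). Mutant array 1 nearly reached the lowest control array, and without control array 2 the gene did not pass (limma adjusted p = 0.0542). Tsp74F had 204, 205 and 188 in the mutant, against 269, 284 and 269 in the control, and fell by 0.46 (SE 0.0771, limma adjusted p = 0.00162), with tight groups on both sides.

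Tsp66E had 103, 92.4 and 133 in the mutant, against 154, 144 and 145 in the control, and fell by 0.45 (SE 0.133, limma adjusted p = 0.0205). Its call was the least stable in the family. It did not pass without mutant array 2 (limma adjusted p = 0.0693), without control array 1 (0.0604), 2 (0.0511) or 3 (0.0516), or without rescaling (0.0649). Tsp42A, on the same arm as the 42E genes but apart from them, had 45.9, 45.2 and 43.2 in the mutant, against 53.6, 61.2 and 57.5 in the control. It fell by 0.36 (SE 0.0882, limma adjusted p = 0.00974), and without rescaling it did not pass (limma adjusted p = 0.0733).

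The neighbouring genes Tsp29Fa and Tsp29Fb lay on opposite sides of 0, a difference between genes that was not tested. Tsp29Fa had 852, 834 and 785 in the mutant, against 1004, 1045 and 936 in the control, and fell by 0.27 (SE 0.0681, limma adjusted p = 0.0104), a call lost without rescaling (limma adjusted p = 0.147). Tsp29Fb had 875, 847 and 825 in the mutant, against 779, 795 and 761 in the control. Every mutant array lay above every control array, but the difference of 0.13 did not pass (limma adjusted p = 0.106), though it passed with all-gene scaling (0.17, limma adjusted p = 0.0395) and without rescaling (0.25, limma adjusted p = 0.0172). Tsp33B had the same order of groups, with means of 84.98 ± 1.37 in the mutant, against 73.7 ± 7.54 in the control (SD, n = 3 each). Its difference of 0.21 did not pass (limma adjusted p = 0.0939), though it passed without rescaling (0.34, limma adjusted p = 0.023). Of the dim autosomal members, Tsp47F had 16.3 to 27.9 in the mutant, against 14.1 to 18.3 in the control, and Tsp68C lay at -1.61 to 5.53 in the mutant, against 0.068 to 2.05 in the control, near 0 in both groups.

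**Figure D3:**
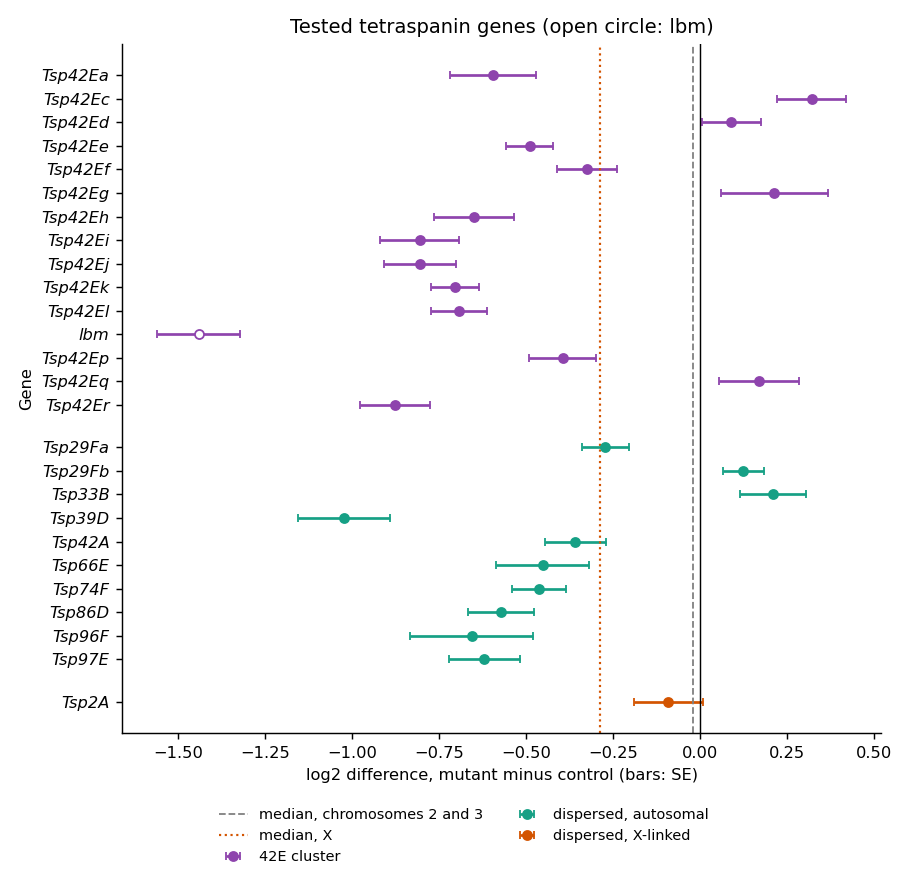
log2 difference (mutant minus control) with its SE for the tested tetraspanin genes and lbm (open circle), with 42E cluster genes at the top, autosomal dispersed genes below and Tsp2A at the bottom, and lines at the median of chromosomes 2 and 3 and at the median of X. Most points of both autosomal groups lie left of both lines, with Tsp42Ec, Tsp42Ed, Tsp42Eg, Tsp42Eq, Tsp29Fb and Tsp33B right of 0.

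Of the 1111 tested X-linked genes, 48.1% fell, and their median was -0.29. Tsp2A, the only one of the 3 that passed the signal filter, builds the smooth septate junctions of the midgut and Malpighian tubules, the seals between cells of these epithelia. It had 112, 118 and 137 on the mutant arrays, against 122, 138 and 129 on the control arrays. The groups overlapped, and its difference of -0.09 (SE 0.1, limma adjusted p = 0.468) did not pass and turned to 0.04 without rescaling. Tsp5D, below the filter, had 9.34, 11.01 and 11.9 in the mutant, against 16.7, 12.3 and 13.2 in the control. The groups were apart, but with no signal filter its difference of -0.38 did not pass (limma adjusted p = 0.105), while Tsp3A, at -0.96 above, passed.

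Partners of Tsp2A were read from a septate junction list of 20 genes, of which 18 were tested. Of these, 6 fell, 4 rose and 8 did not pass, with a median of -0.11. These shares are near those of all tested genes, of which 32.4% fell and 23.1% rose, so the counts are no result about the list. mesh, which encodes a membrane protein of the smooth septate junction, had 270, 259 and 248 in the mutant, against 135, 99.8 and 140 in the control, and rose by 1.07 (SE 0.132, limma adjusted p = 0.000458). Ssk, another membrane protein gene of that junction, had 579, 537 and 505 in the mutant, against 730.5, 687 and 660 in the control, and fell by 0.36 (limma adjusted p = 0.00545), a call lost without rescaling (limma adjusted p = 0.0625). hoka, a further member of the smooth septate complex, stood at -0.08 with overlapping groups and did not pass. Genes of septate junctions in general included pck, a claudin gene on X (-0.75, limma adjusted p = 0.000321), and nrv2, a sodium pump subunit gene (-0.45, limma adjusted p = 0.00409).

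**Figure D4:**
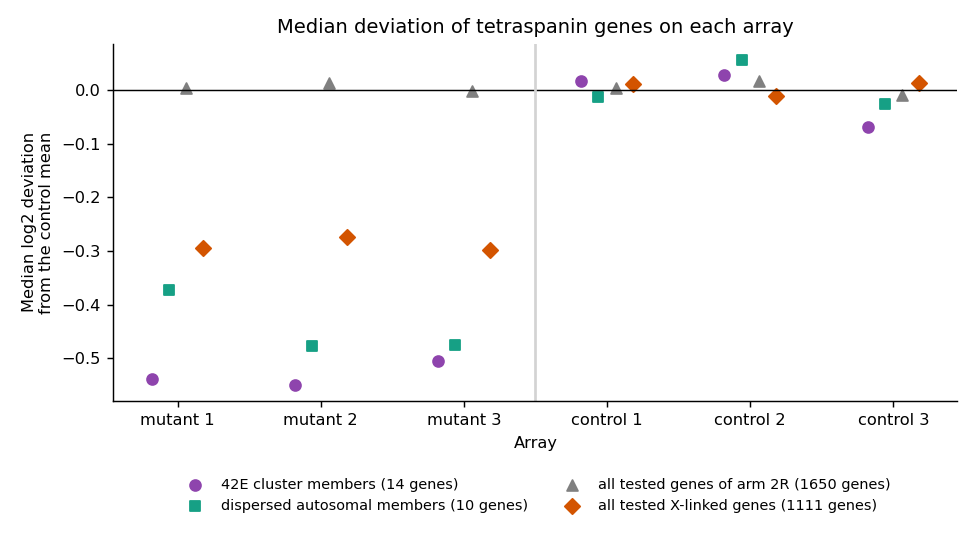
Median log2 deviation from the control mean on each array (mutant arrays left, control arrays right) for the 42E cluster members, the dispersed autosomal members, all tested genes of arm 2R and all tested X-linked genes. The cluster lies at -0.54, -0.55 and -0.50 on the mutant arrays and arm 2R near 0; control values lie near 0 by construction.

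The medians of the cluster and of the dispersed autosomal genes lay below every control array on each mutant array. The median deviation of the 14 cluster members from the control mean was -0.54, -0.55 and -0.50 on the mutant arrays, against 0.02, 0.03 and -0.07 on the control arrays. The 10 dispersed autosomal members stood at -0.37, -0.48 and -0.48 on the mutant arrays, against -0.01, 0.06 and -0.03 on the control arrays. Within the mutant group array 1 carried the lowest signal for 10 of the 14 cluster members, and for 1 of the 10 dispersed ones. The share over all tested genes was not counted, so nothing particular to the cluster is read from this. Without Tsp42Er, Tsp42Ei and Tsp42Ej the cluster stood at -0.46, -0.27 and -0.32 on the mutant arrays (SD 0.1, n = 3), so its median depends on which genes are counted. No test of cluster against dispersed genes was made, since the members were chosen with results known.

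Marker lists of other larval tissues are given as values beside the shares of all tested genes, of which 32.4% fell and 23.1% rose. Midgut genes gave 3 falls and 1 rise among 8 tested, with summed signals of 7086 to 7881 in the mutant, against 7801 to 8364 in the control. Malpighian tubule genes gave 1 fall and 2 rises among 7, with sums of 1580.04 to 1672 in the mutant, against 1281 to 1335 in the control. Sums weigh bright probe sets most. Most of this gap lay in Fst, with means of 1084 in the mutant, against 798 in the control, and the list median was -0.01. The tubule fall was Urm1 (log2 -0.63), a ubiquitin-related modifier gene. It is a weak marker of that tissue but belongs to the list as planned and stays in its counts. Muscle genes gave 3 rises among 4 (sums of 1633 to 2175 in the mutant, against 1005 to 1267 in the control), and trachea genes 3 rises among 4 (2038 to 2327 in the mutant, against 1360.49 to 1411 in the control). Imaginal disc genes gave 1 fall and 1 rise among 5. Salivary glue genes gave 5 falls among 6 (sums of 12381 to 12842 in the mutant, against 14975 to 15305 in the control), of which only that of Sgs4 held with quantile scaling. Sgs4 is X-linked, and of all tested X-linked genes 48.1% fell. Fat body genes gave 1 fall and 3 rises among 6, hemocyte genes 3 falls and 2 rises among 6, and testis genes 1 fall and 3 rises among 5. Their part in the tetraspanin values was not tested.

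**Figure D5:**
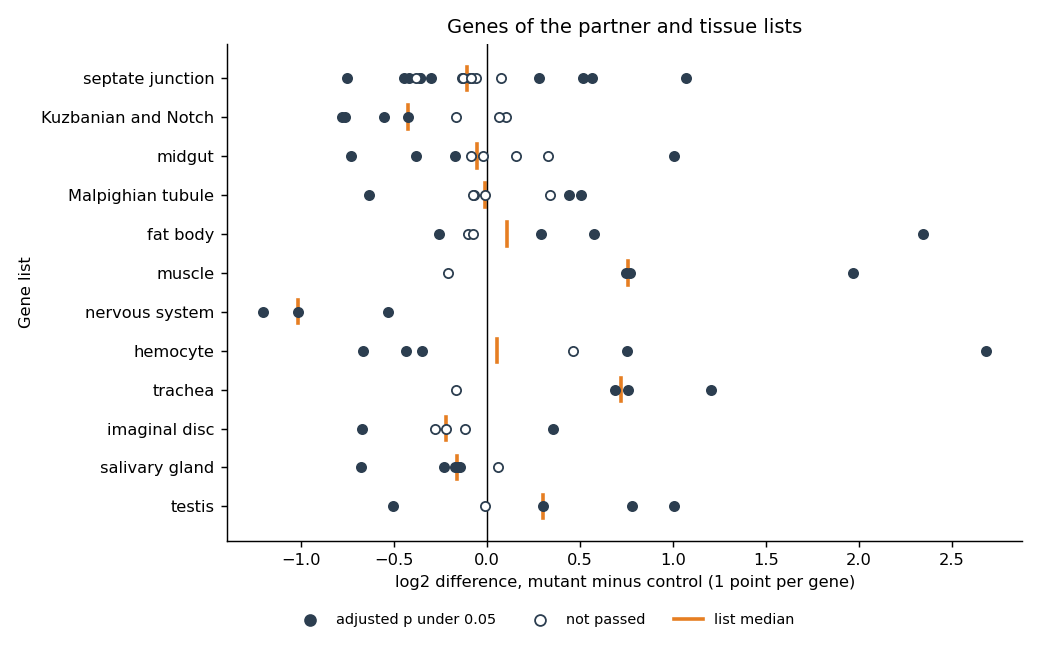
log2 difference (mutant minus control) of every tested gene on the partner and tissue lists, 1 point per gene, filled where the limma adjusted p was under 0.05, with list medians as vertical bars. Muscle and trachea medians lie at 0.76 and 0.72, and the septate junction list spreads to both sides of 0. The nervous system median lies at -1.02 (-0.40 with an offset of 50), over 3 genes near the median probe set in the mutant.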

How the data were processed

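RNA from 6 pools of 50 larvae was measured on Affymetrix Drosophila Genome arrays, and groups were taken from the labels' titles and genotypes. The authors deposited linear intensity for every probe set, not centred. GCOS 1.2 is named in the submitters' processing notes. The design text describes scaling by the authors to an autosomal median of 100 per array, and which genes entered that median stays unknown. Median deposited intensity over probe sets was 108, 106 and 106 in the mutant, against 102, 102 and 102 in the control. How probes were summarised is not stated.

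Probe sets were named through the platform annotation, updated through the RefSeq gene table: 13647 had a single gene, 402 several and 4720 none listed. Non-positive intensities took the smallest positive value (0.016), the upper 50% by mean log2 signal were kept (9384), each gene took its brightest probe set, and the median of kept autosomal genes was set to 100 (factors 0.246 to 0.280). The model in limma 3.58.1 (R 4.3.3; lmFit, eBayes with trend) had group alone, and p-values were adjusted over 7801 genes. The fit was tested on simulated data. No sequence was used.

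Named genes are all members, lbm, genes within the 42E span and the 3 nearest on each side, and of each list the genes that passed or up to 4 of smallest p. hoka was named beyond this rule for its role beside Tsp2A, after its values were seen. Members and lists were chosen with earlier results of these data known. The p-values measure only the spread between 3 pools per group. Alternatives were other scalings, no filter, an offset of 50, every probe set, other eBayes settings, a replicate block and leaving out each array.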

Additional observations from a re-analysis of the deposited data

How the results depend on the processing

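Against 18 falls among 25 tested members, 14 fell without rescaling, 20 of 32 with no signal filter, and 16 to 18 on leaving out 1 array. These counts, and the medians below, include the genes selected on their low values, so no stability is read from them. Without the selected genes, 14 of 21 members fell in the main setting, and the cluster median was -0.39. Of all 7801 tested genes, 2525 fell in the main setting, 1709 without rescaling and 2112 to 2509 on leaving out 1 array. With no signal filter 25.5% of all 11953 genes fell. The risen count was 4 without rescaling and 2 with all-gene scaling, and 0 (without control array 3) to 3 (without mutant array 1) on leaving out 1 array. Of all 7801 tested genes, 1805 rose in the main setting, 2406 without rescaling and 2022 with all-gene scaling. On leaving out 1 array, 1409 to 1819 rose. Without rescaling the median of all genes moved to 0.07, against -0.06, and rises made up 58.5% of calls, against 41.7%. That setting gave cluster and dispersed medians of -0.42 and -0.33, and an offset of 50 gave -0.41 and -0.29. The cluster median was -0.50 with all-gene and -0.49 with quantile scaling, and ran from -0.578 to -0.513 on leaving out 1 array. Without rescaling the septate junction list had 2 falls, the tissue lists together 9 (against 18), Tsp2A turned to 0.036, hoka to 0.045, Lac to 0.068, Gli to 0.00018, Cont to 0.042 and CG17002 to 0.013. Septate junction rises ranged from 2 to 4 on leaving out 1 array. List medians also changed sign: septate junction 0.018, midgut 0.074 and Malpighian tubule 0.11 without rescaling, midgut 0.029 and tubule 0.030 with quantile scaling, and tubule 0.034 with all-gene scaling. On leaving out 1 array the tubule median ran from -0.060 to 0.17, the midgut median from -0.10 to 0.060, Lac from -0.20 to 0.094, Gli from -0.25 to 0.010 and CG17002 from -0.25 to 0.0025. The scale factors were 0.246, 0.260 and 0.262 on the mutant arrays, against 0.280, 0.279 and 0.279 on the control arrays. Leaving out rescaling therefore moved the log2 difference of every gene upward by the same amount. The cause of the other changes was not tested.

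Replicate numbers did not pair the arrays: deviations of same-numbered arrays from their group means correlated at -0.34, -0.06 and -0.38, and mutant array 1 correlated best with control array 3 (0.51). With a replicate block 18 members fell and 1 rose, as without it, and all genes gave 2166 falls and 1529 rises, against 2525 and 1805.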

Other observations

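Among tested members and lbm, the gene whose log2 signal over the 6 arrays was most like that of Tsp42Ej was lbm (Pearson r = 0.995), for Tsp42Er it was Tsp42Ej (0.994), for Tsp42Ei it was Tsp42El (0.973) and for Tsp39D it was lbm (0.972). These values describe 6 arrays that share the difference between the groups. After group means were taken away the same pairs stood at 0.964, 0.903, 0.625 and 0.586. Tsp42Eg and Tsp42Eq, both higher on mutant arrays 2 and 3 than on array 1, were most like each other (0.912, and 0.883 after group means were taken away). Mutant array 1 was the lowest of its group for 12 of the 25 tested members, so that order is not particular to this pair. Each value before group means were taken away is the highest for its gene, with no typical value beside it.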
